A study of Mus musculus castaneus and Mus musculus domesticus and Mus musculus with 11 samples.

Results

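Genes of Wnt signalling outside the cell and at its surface were described in RNA sequencing of motor neurons made from mouse stem cells. They were chosen by symbol alone, as the Wnt ligands (Wnt), the R-spondins (Rspo), the Frizzled receptors (Fzd), the receptors and co-receptors Lrp5, Lrp6, Ryk, Ror1 and Ror2, the secreted inhibitors (Sfrp, Dkk, Wif1 and Notum), and Axin2 and Lef1. These were 48 of the 27071 genes in the deposited count matrix, and Fzd7 and Rspo2 were not analysed here. They comprised 19 Wnt ligands, 3 R-spondins, 9 Frizzled receptors, 5 other receptors, 10 secreted inhibitors and the pair Axin2 and Lef1.

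Cultures came from 3 lines with 3 libraries each. The hybrid line is a CASTx129 cross labelled 129CAS, the CAST line is CAST/EiJ, a wild-derived inbred mouse, and the 129 line is 129S6/SvEv, a laboratory strain. No treatment, time in culture, genotype change or clone number is given for any line, and 2 further CAST samples in the labels were not analysed here. The series set out to compare the transcriptional identity of differentiated motor neurons between the lines. Nothing in the labels tells separate cultures from repeat libraries of 1 culture, so all p-values rest on the variation among these 9 libraries, which may be technical.

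Wnt proteins are lipid-modified secreted ligands. When they engage a Frizzled receptor together with the co-receptors Lrp5 or Lrp6, beta-catenin is stabilised and acts with Lef1 and its relatives on target genes such as Axin2, which encodes a feedback inhibitor. Other Wnt signals pass through Frizzled, Ror and Ryk receptors to the cytoskeleton, and in the spinal cord they are known for patterning the neural tube and for guiding axons.

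Total counts were between 7763077 and 18167577 per library. The libraries hybrid 2, CAST 1 and hybrid 3 stood apart: their relative log2 expression changed by −0.66, −0.57 and −0.26 per doubling of exon length over 14009 genes, against slopes between 0.09 and 0.34 in the other 6 libraries. The 10 motor neuron markers summed to between 635 and 1490 CPM (counts scaled to library size by edgeR's cpm function after TMM, its trimmed mean of M-values) in hybrid libraries, 730 and 3460 CPM in CAST libraries and 531 and 1960 CPM in 129 libraries. The single motor neuron marker at 0 was Lhx3, in hybrid 1. Markers of fibroblasts and mesenchyme, none of the 12 at 0 in any library, summed to between 1610 and 22800 CPM in hybrid libraries, 4500 and 6280 CPM in CAST libraries and 4390 and 21400 CPM in 129 libraries. In such bulk samples, fewer cells of a type and less RNA per cell cannot be told apart.

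Of the 48 genes, 39 passed the filter on low counts and were tested, and 20 averaged at least 10 CPM over the 9 libraries. Dkk3 had the highest level per length, with 52.1 ± 33.7 CPM per kilobase of exon in hybrid cultures, 69.6 ± 44.1 in CAST cultures and 72.0 ± 39.7 in 129 cultures (SD, n = 3 each). Over all 9 libraries it averaged 64.6 CPM per kilobase, ahead of Ryk at 22.8, Fzd1 at 18.0, Dkk2 at 17.4, Wnt5b at 16.0 and Wnt4 at 13.8. No gene of the 48 was called different between any lines by edgeR's quasi-likelihood test at an adjusted p of 0.05.

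**Figure D1:**
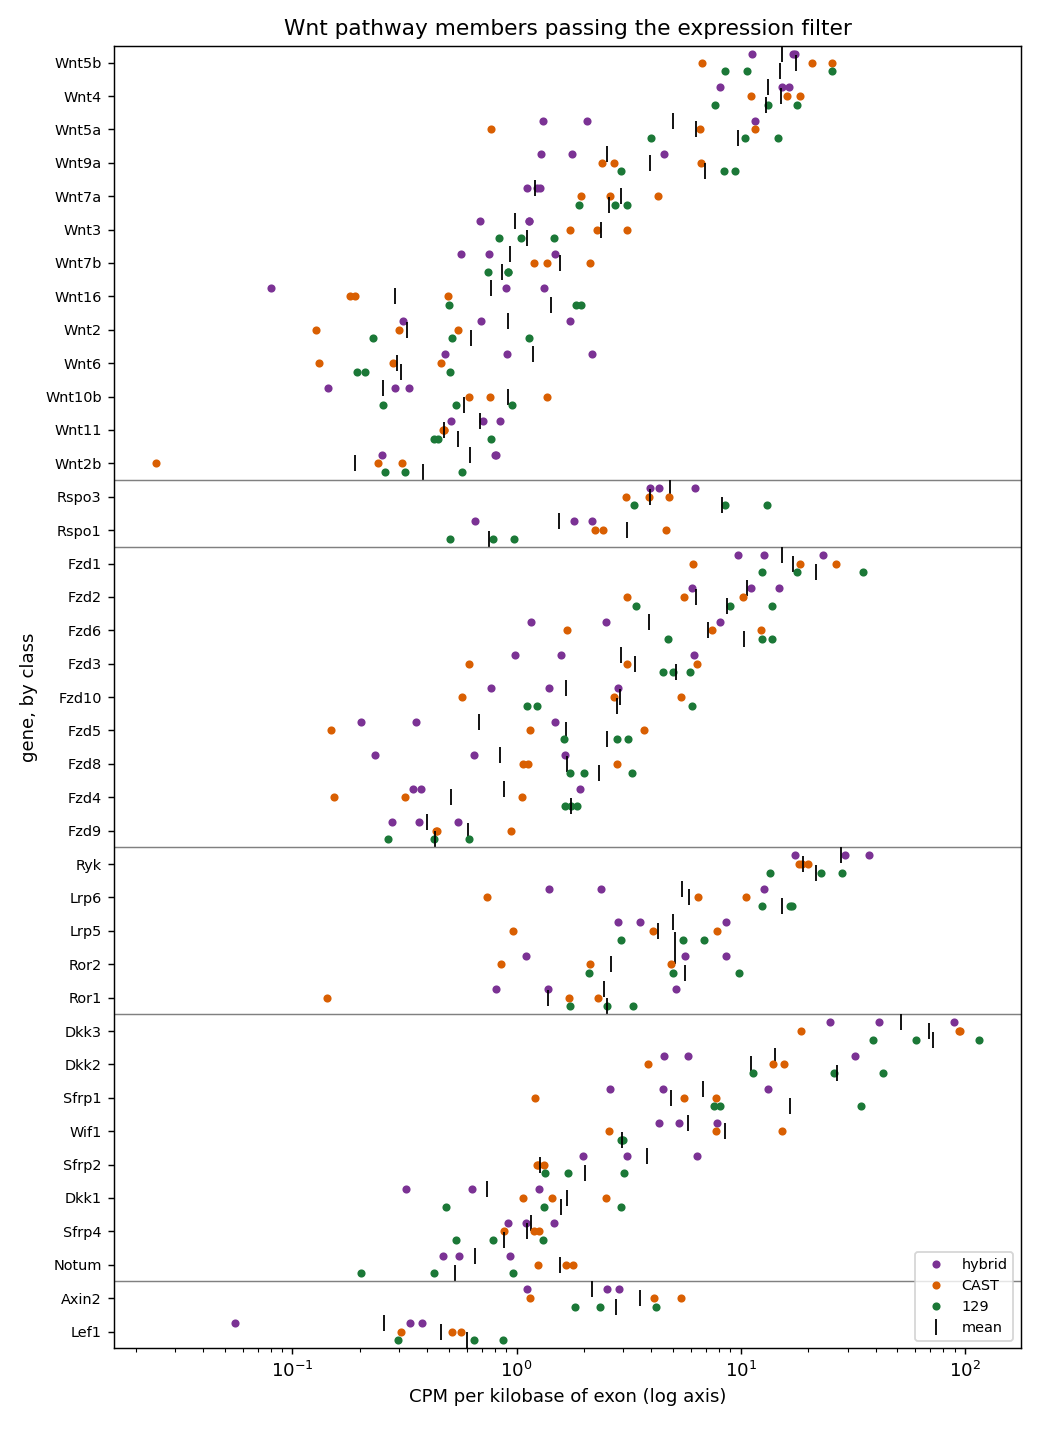
Level of each tested gene in CPM per kilobase of exon (log axis), grouped by class, with dots for libraries of the hybrid, CAST and 129 lines and black ticks for line means. Dkk3 lies farthest right, with line means of 52.1, 69.6 and 72.0 CPM per kilobase in hybrid, CAST and 129 cultures.

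Among the ligands, Wnt5b, Wnt4 and Wnt5a made up most of the expression per length. Wnt5b, a ligand of beta-catenin-independent signalling, took 34.0 ± 7.50% of the summed CPM per kilobase of the 19 ligands in hybrid libraries, 31.6 ± 10.2% in CAST libraries and 26.4 ± 9.77% in 129 libraries (SD, n = 3 each). The share of Wnt4, known as an attractant of commissural axons in the spinal cord, was 30.2 ± 11.9% in hybrid libraries, 29.8 ± 4.87% in CAST libraries and 26.9 ± 16.2% in 129 libraries. For both ligands the line means lay within the spread between libraries.

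Wnt4 stood at 34.0, 64.3 and 69.0 CPM in hybrid libraries 1 to 3, at 46.5, 77.3 and 67.4 CPM in CAST libraries 1 to 3 and at 32.1, 55.6 and 74.8 CPM in 129 libraries 1 to 3. The 3 lines overlapped, and the log2 fold change of CAST against 129 was 0.23 ± 0.42 (SE). Between hybrid and 129 cultures it was 0.04 ± 0.42, and between hybrid and CAST cultures −0.19 ± 0.42 (adjusted p = 0.776, 0.956 and 0.909 in that order).

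Wnt5a, a ligand of the Ror receptors, had 90.5, 10.3 and 16.1 CPM in hybrid libraries 1 to 3, 5.99, 51.3 and 90.7 CPM in CAST libraries 1 to 3 and 115, 81.4 and 31.1 CPM in 129 libraries 1 to 3. Each line thus held both a high and a low library, and the ranges of all 3 lines overlapped. Its log2 fold change of CAST against 129 was −0.62 ± 1.01, and that of hybrid against 129 was −0.96 ± 1.01 (adjusted p = 0.750 and 0.559). In hybrid against CAST it was −0.34 ± 1.01 (adjusted p = 0.933). Without any 1 library, CAST against 129 ran from −1.40 (without CAST 3) to −0.13 (without CAST 1), and hybrid against 129 from −2.55 (without hybrid 1, adjusted p = 0.136 by edgeR) to −0.51 (without hybrid 2).

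The next ligand by level per length was Wnt9a, at 8.42 ± 5.87 CPM in hybrid cultures, 13.1 ± 7.90 CPM in CAST cultures and 23.1 ± 11.7 CPM in 129 cultures. The other 9 tested ligands, Wnt2, Wnt2b, Wnt3, Wnt6, Wnt7a, Wnt7b, Wnt10b, Wnt11 and Wnt16, averaged between 1.30 and 7.12 CPM over the 9 libraries. The ligands that did not pass the filter were Wnt1, Wnt3a, Wnt8a, Wnt8b, Wnt9b and Wnt10a. Wnt1 and Wnt3a, the ligands of the roof plate at the dorsal midline of the cord, had at most 5 and 22 counts in any library.

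Wnt8b, Wnt3a and Wnt9b had 26, 22 and 19 counts in hybrid 2, the shallowest library. In the other 8 libraries Wnt8b had 0 to 10 counts, Wnt3a had 0 to 2 and Wnt9b had 0 to 16. Wnt10a had 14 counts in hybrid 2 and 15 in 129 1. Hybrid 2 was the highest library by CPM for 4 of the 8 genes that had a count but did not pass the filter, against 39.3% of the 6584 such genes in the whole matrix. Wnt8a had 2 counts in all, both in 129 3.

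**Figure D2:**
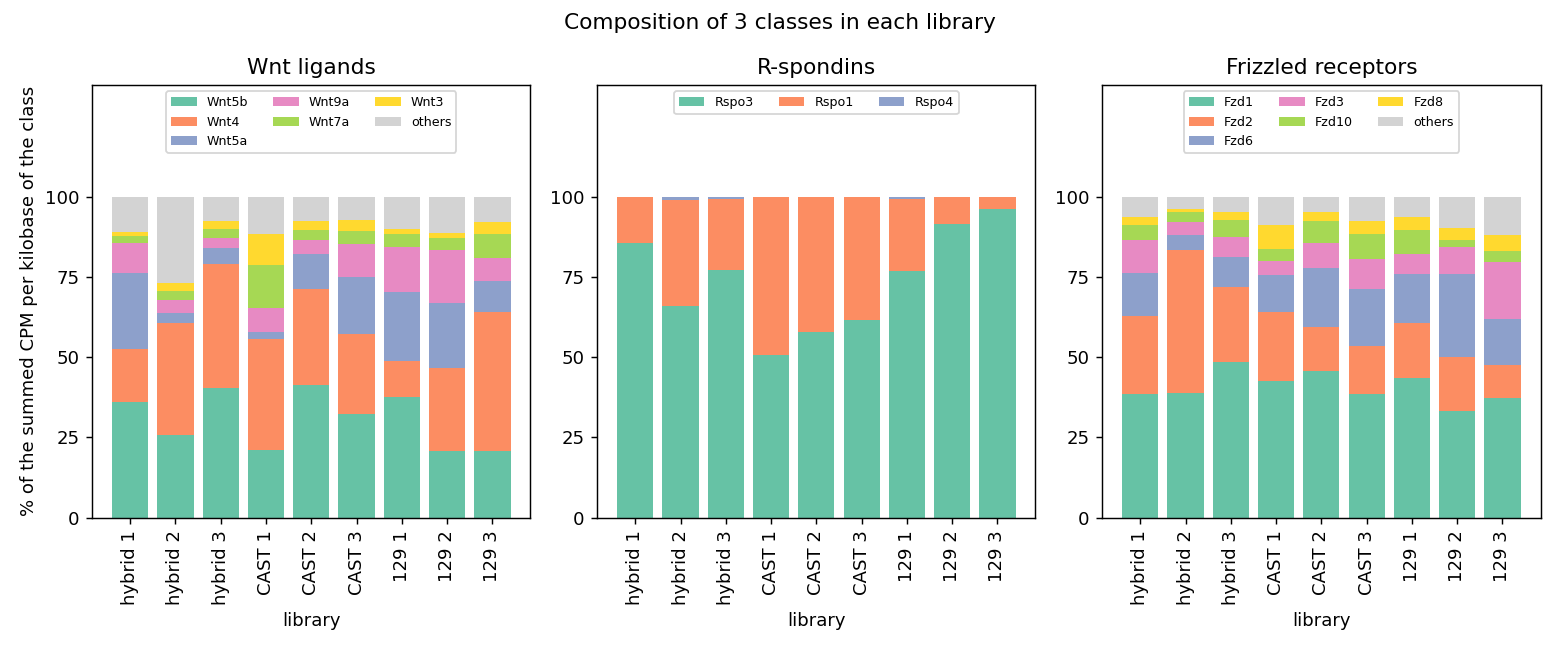
Share of each gene in the summed CPM per kilobase of its class (percent) in each library of the hybrid, CAST and 129 lines, for Wnt ligands, R-spondins and Frizzled receptors. The share of Rspo1 among R-spondins was 38.4% to 49.2% in the CAST libraries and 3.72% to 22.5% in the 129 libraries, and Fzd1 took between 33.3% and 48.5% of the Frizzled class in all libraries.

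R-spondins bind Lgr receptors and protect Frizzled receptors from removal by the ubiquitin ligases Rnf43 and Znrf3. Rspo3 and Rspo1 carried nearly the whole class, and Rspo4 had 4 counts over all libraries. Rspo3 was at 12.2, 13.3 and 19.4 CPM in hybrid libraries 1 to 3, at 14.8, 9.49 and 12.1 CPM in CAST libraries 1 to 3 and at 10.3, 26.3 and 40.3 CPM in 129 libraries 1 to 3. Its 2 highest libraries were of the 129 line, whose lowest library lay within the CAST range. The log2 fold change of Rspo3 was −1.08 ± 0.49 in CAST against 129, −0.77 ± 0.48 in hybrid against 129 and 0.31 ± 0.48 in hybrid against CAST (adjusted p = 0.347, 0.352 and 0.861). Annotated antisense genes overlap 13.1% of the exon length of Rspo3, and the strand setting of the counting is not given, so some of its reads may not be its own.

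Rspo1 (chromosome 4, 124986430 to 125009099, plus strand, GRCm38) had 1.27, 4.19 and 3.49 CPM in hybrid libraries 1 to 3, 8.98, 4.32 and 4.73 CPM in CAST libraries 1 to 3 and 1.89, 1.52 and 0.977 CPM in 129 libraries 1 to 3. All CAST libraries lay above all hybrid and all 129 libraries, while hybrid and 129 libraries overlapped. The log2 fold change of Rspo1 in CAST against 129 was 2.03 ± 0.57, with an adjusted p of 0.149, the lowest of the 39 genes in that comparison. It was 1.01 ± 0.56 in hybrid against 129 and −1.02 ± 0.56 in hybrid against CAST (adjusted p = 0.307 and 0.457).

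The balance within the class followed from these values. The share of Rspo1 in the summed CPM per kilobase of the class was 14.2%, 33.2% and 22.1% in hybrid libraries 1 to 3, 49.2%, 42.1% and 38.4% in CAST libraries 1 to 3 and 22.5%, 8.47% and 3.72% in 129 libraries 1 to 3. The CAST shares lay above all others, and the shares of hybrid and 129 libraries overlapped. This share was set out after its values were seen, so it is a description with no test.

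All 9 Frizzled receptors passed the filter. Fzd1 led the class per length in every line, with 41.9 ± 5.67% of its summed CPM per kilobase in hybrid libraries, 42.3 ± 3.57% in CAST libraries and 38.1 ± 5.12% in 129 libraries (SD, n = 3 each). Fzd2, a Wnt5a receptor, took 30.8 ± 12%, 16.7 ± 4.17% and 14.7 ± 3.88% of the class in hybrid, CAST and 129 libraries, and hybrid 2 alone stood at 44.7%.

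Fzd1 was at 97.7, 40.7 and 53.2 CPM in hybrid libraries 1 to 3, at 25.8, 77.2 and 112 CPM in CAST libraries 1 to 3 and at 147, 74.6 and 52.4 CPM in 129 libraries 1 to 3. The ranges overlapped in every pair of lines. Its log2 fold change was −0.35 ± 0.60 in CAST against 129, −0.52 ± 0.60 in hybrid against 129 and −0.16 ± 0.60 in hybrid against CAST (adjusted p = 0.762, 0.596 and 0.949).

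Fzd3, which developing axon tracts need for their guidance, had 79.2, 12.6 and 20.3 CPM in hybrid libraries 1 to 3, 7.85, 39.9 and 81.4 CPM in CAST libraries 1 to 3 and 63.8, 57.6 and 76.4 CPM in 129 libraries 1 to 3. The 129 libraries were close together, whereas the hybrid and CAST libraries spanned both lower and higher values. The log2 fold changes of Fzd3 in CAST against 129, hybrid against 129 and hybrid against CAST were −0.61 ± 0.83, −0.82 ± 0.83 and −0.20 ± 0.83 (adjusted p = 0.703, 0.546 and 0.952). Fzd4, Fzd5, Fzd6, Fzd8, Fzd9 and Fzd10 averaged between 1.10 and 34.4 CPM over the 9 libraries.

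Of the other receptors, Ryk, an atypical receptor kinase with a Wnt-binding domain and a role in axon repulsion, varied little among CAST libraries. It had 169, 132 and 79.5 CPM in hybrid libraries 1 to 3, 85.2, 82.6 and 90.2 CPM in CAST libraries 1 to 3 and 129, 103 and 61.5 CPM in 129 libraries 1 to 3. The highest CAST library was 1.09 times the lowest, and the CAST values lay inside both other ranges. Its log2 fold changes of −0.18 ± 0.39 in CAST against 129, 0.38 ± 0.39 in hybrid against 129 and 0.56 ± 0.40 in hybrid against CAST had the narrowest 95% intervals of the 39 genes (adjusted p = 0.814, 0.555 and 0.610).

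Lrp6, the co-receptor of beta-catenin signalling, had 174, 19.0 and 32.4 CPM in hybrid libraries 1 to 3, 10.1, 88.0 and 144 CPM in CAST libraries 1 to 3 and 231, 227 and 171 CPM in 129 libraries 1 to 3. All 129 libraries lay above all CAST libraries, and hybrid 1 reached the lower edge of the 129 range. The log2 fold change of Lrp6 was −1.38 ± 0.96 in CAST against 129, −1.48 ± 0.97 in hybrid against 129 and −0.10 ± 0.95 in hybrid against CAST (adjusted p = 0.499, 0.369 and 0.978). Lrp6 has the longest exon model of the tested genes described here, 13672 bases, and its lowest CAST and hybrid values fell in CAST 1 and hybrid 2, where long transcripts were scarce. With an offset for exon length its log2 fold change was −1.19 in CAST against 129, −0.85 in hybrid against 129 and 0.34 in hybrid against CAST. With 1 library left out, CAST against 129 ran from −2.09 (without CAST 3) to −0.88 (without CAST 1), and hybrid against 129 from −3.04 (without hybrid 1, adjusted p = 0.088 by edgeR) to −1.02 (without hybrid 2). Lrp5, Ror1 and Ror2 averaged 46.7, 12.2 and 18.9 CPM over the 9 libraries, and the ranges of all lines overlapped for each of them.

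Secreted inhibitors act on the ligand or on the co-receptor: Sfrp proteins and Wif1 bind Wnts, Dkk1 and Dkk2 bind Lrp5 and Lrp6, and Notum removes the lipid of the ligand. Dkk3, a divergent member of the Dkk family, had 302, 83.8 and 139 CPM in hybrid libraries 1 to 3, 62.6, 318 and 320 CPM in CAST libraries 1 to 3 and 390, 204 and 131 CPM in 129 libraries 1 to 3. Its lines overlapped, and the log2 fold changes in CAST against 129, hybrid against 129 and hybrid against CAST were −0.05 ± 0.71, −0.47 ± 0.71 and −0.42 ± 0.71 (adjusted p = 0.980, 0.688 and 0.875).

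Dkk2 had 120, 21.5 and 16.8 CPM in hybrid libraries 1 to 3, 14.3, 51.9 and 58.0 CPM in CAST libraries 1 to 3 and 160, 96.3 and 41.9 CPM in 129 libraries 1 to 3. Hybrid 1 was far above the other hybrid libraries, and the ranges of all lines overlapped. The log2 fold changes of Dkk2 in the same order were −1.26 ± 0.85, −0.91 ± 0.84 and 0.35 ± 0.84 (adjusted p = 0.483, 0.508 and 0.916). Leaving out 1 library at a time gave CAST against 129 values from −1.63 (without 129 3) to −0.74 (without 129 1), and hybrid against 129 values from −2.41 (without hybrid 1, adjusted p = 0.0879 by edgeR) to −0.39 (without 129 1).

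Wif1 had 10.5, 12.9 and 19.0 CPM in hybrid libraries 1 to 3, 6.30, 18.9 and 37.1 CPM in CAST libraries 1 to 3 and 7.12, 7.26 and 7.18 CPM in 129 libraries 1 to 3. The hybrid libraries all lay above the 129 libraries, which were nearly equal, and the CAST libraries spanned both. The log2 fold change of Wif1 was 1.53 ± 0.57 in CAST against 129 and 0.97 ± 0.56 in hybrid against 129 (adjusted p = 0.260 and 0.320). Sfrp1, Sfrp4 and Dkk1 averaged 41.3, 4.39 and 3.23 CPM over the 9 libraries. Sfrp5 did not pass the filter, with at most 7 counts in a library, and Dkk4 had 0 counts in all 9 libraries, which allows a level of up to 0.0233 CPM (3 counts over all libraries, counting error only).

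Notum had 1.13, 2.24 and 1.33 CPM in hybrid libraries 1 to 3, 2.99, 3.99 and 4.30 CPM in CAST libraries 1 to 3 and 2.33, 0.488 and 1.03 CPM in 129 libraries 1 to 3. All CAST libraries lay above all others. Its log2 fold change was 1.54 ± 0.61 in CAST against 129 and −1.28 ± 0.61 in hybrid against CAST (adjusted p = 0.288 and 0.358). Antisense genes overlap 38.1% of the exon length of Notum, and without a known strand setting its reads cannot be told apart from theirs.

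Axin2 and Lef1 stand at the transcriptional end of the pathway. Axin2 had 15.8, 6.15 and 14.0 CPM in hybrid libraries 1 to 3, 6.30, 22.6 and 29.7 CPM in CAST libraries 1 to 3 and 23.1, 10 and 13 CPM in 129 libraries 1 to 3. Its lines overlapped, with log2 fold changes of 0.35 ± 0.60 in CAST against 129, −0.35 ± 0.60 in hybrid against 129 and −0.70 ± 0.60 in hybrid against CAST (adjusted p = 0.762, 0.726 and 0.705).

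Lef1 had 3.33, 2.93 and 0.489 CPM in hybrid libraries 1 to 3, 2.68, 4.55 and 4.95 CPM in CAST libraries 1 to 3 and 7.62, 5.67 and 2.59 CPM in 129 libraries 1 to 3. Hybrid 3 was the lowest library and the lines overlapped. The log2 fold changes of Lef1 in the same order were −0.38 ± 0.67, −1.24 ± 0.69 and −0.87 ± 0.69 (adjusted p = 0.773, 0.307 and 0.673), and antisense genes overlap 13.7% of its exon length.

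The comparison of CAST with 129 called 0 of the 39 tested genes, against 0.917% of all 14839 tested genes (0.391% higher and 0.526% lower in CAST). At an unadjusted p under 0.05 edgeR had 5 of the 39, namely Rspo1, Wif1, Notum, Wnt3 and Wnt16, against 14.6% of all genes. DESeq2 called 1 of the 39, against 6.33% of all tested genes. This was Rspo1 (log2 fold change 2 ± 0.59, adjusted p = 0.0169, the lowest over the alternatives, whose highest was 0.47). CAST and 129 libraries did not overlap for 8 of the 39, against 28.6% of all genes. Wnt3, Wnt7b, Rspo1 and Notum lay higher in CAST, 4 of 39 against 15.2% of all genes, and Wnt16, Fzd4, Lrp6 and Sfrp2 lay lower, 4 of 39 against 13.5%. The median log2 fold change of the 39 was −0.35, against 0.06 over all tested genes, and without CAST 1 and hybrid 2 it was −0.13. With 1 library left out at a time, it lay between −0.65 (without CAST 3) and −0.03 (without 129 1). Between 1 (without 129 2) and 6 genes (without hybrid 1) then had an unadjusted p under 0.05 by edgeR. The share of all tested genes at that level was not computed for those fits.

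The hybrid against 129 called 0 of the 39, against 7.02% of all tested genes (5.41% higher and 1.6% lower in the hybrid). At an unadjusted p under 0.05 there were 2, Wnt7a and Wnt6, against 22.2% of all genes. DESeq2 called 0, against 14.2% of all tested genes. Hybrid and 129 libraries did not overlap for 4 genes, against 37.5% of all genes, with Wif1 higher (1 of 39, against 20.5% of all genes) and Wnt7a, Fzd5 and Fzd8 lower in the hybrid (3 of 39, against 16.9%). The median log2 fold change was −0.35 for the 39 and 0.02 for all tested genes. The median moved most with 3 libraries. Without hybrid 1 it was −0.72, without 129 2 it was −0.58 and without 129 1 it was 0.01. In the fit without hybrid 1, 13 of the 39 had an unadjusted p under 0.05 by edgeR. The share of all tested genes at that level was not computed for that fit, so the 13 have no background.

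The hybrid against CAST also called 0 of the 39, against 6% of all tested genes (4.41% higher and 1.6% lower in the hybrid). At an unadjusted p under 0.05 there were 5, namely Wnt7a, Sfrp2, Wnt3, Wnt10b and Wnt6, against 15.8% of all genes. DESeq2 called 2 of the 39, against 10.8% of all tested genes. These were Sfrp2 (log2 fold change 1.63 ± 0.56, adjusted p = 0.0353) and Wnt7a (log2 fold change −1.25 ± 0.44, adjusted p = 0.0425). Over the other alternatives the adjusted p reached 0.435 for Sfrp2 and 0.287 for Wnt7a. Hybrid and CAST libraries did not overlap for 8 genes, against 19.2% of all genes, with Wnt6, Wnt11 and Sfrp2 higher (3 of 39, against 10.7% of all genes) and Wnt3, Wnt7a, Wnt10b, Rspo1 and Notum lower in the hybrid (5 of 39, against 8.57%). The median log2 fold change was −0.20 for the 39 and −0.08 for all tested genes. With 1 library left out at a time it lay between −0.58 (without CAST 1) and 0.16 (without CAST 3), and no such setting called any of the 39 in any comparison. The 3 comparisons share libraries, so their values are not independent of each other.

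**Figure D3:**
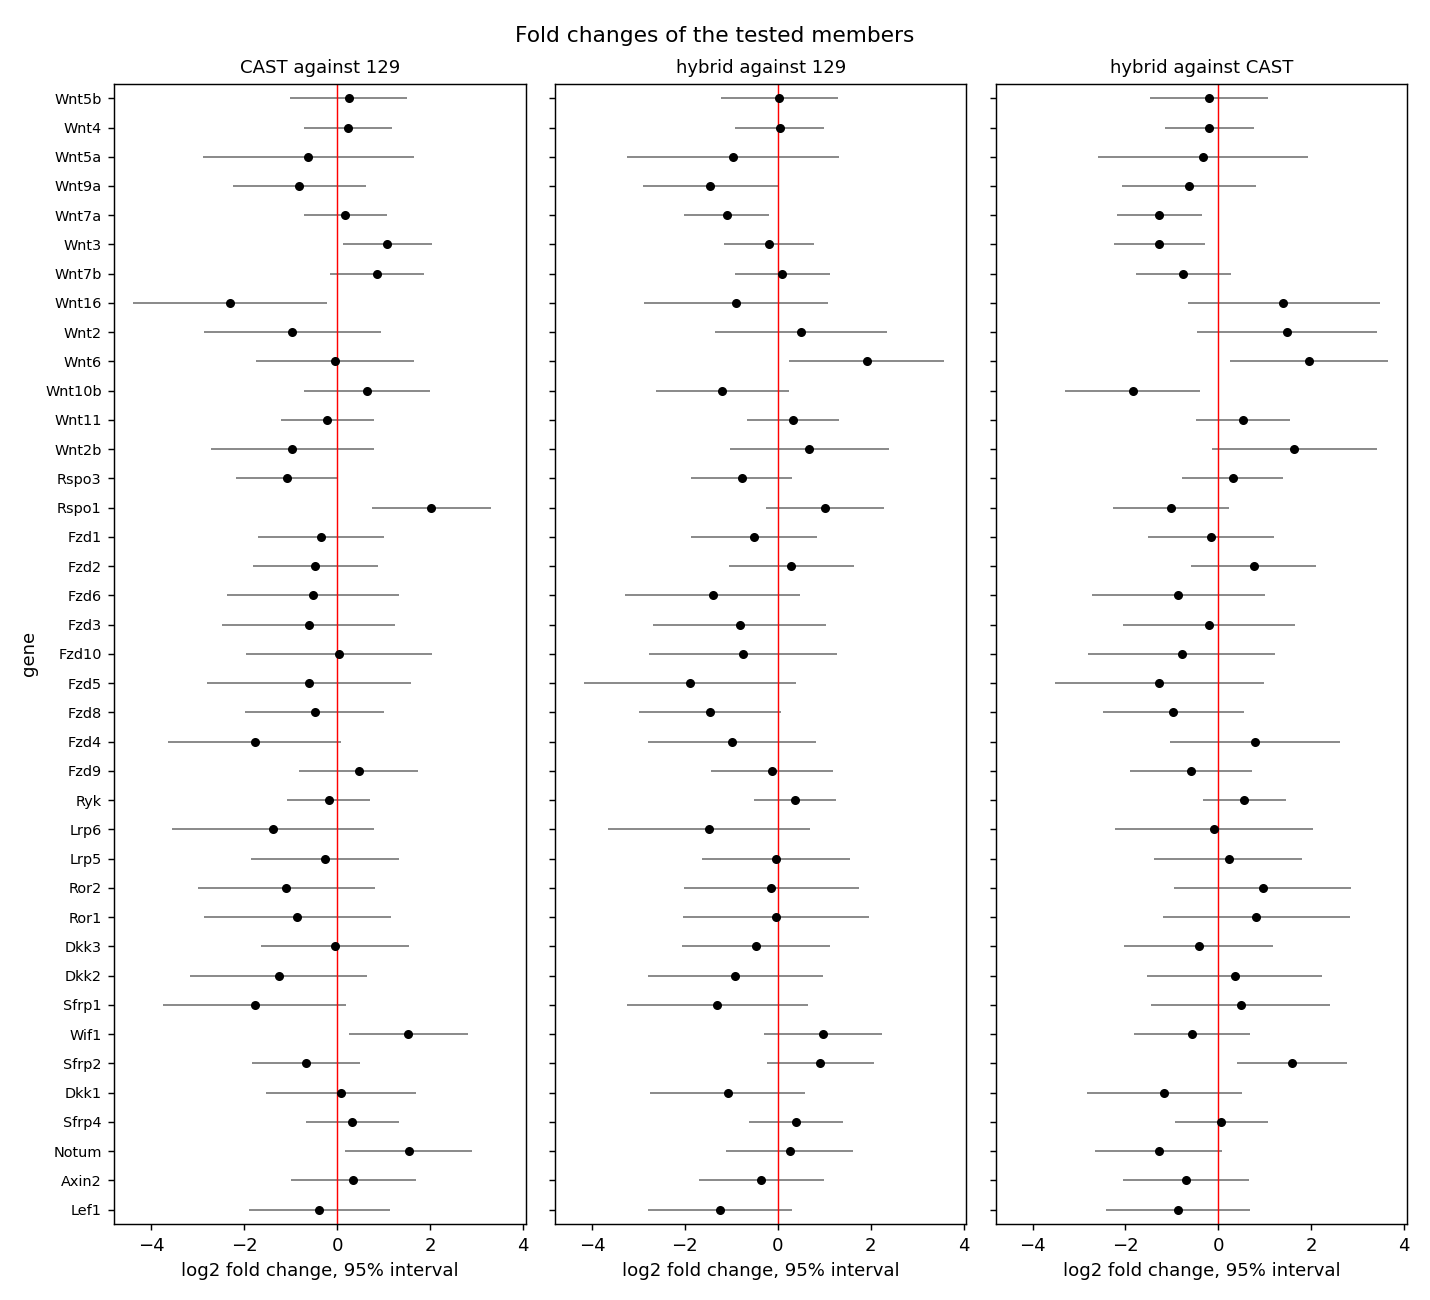
Log2 fold change with its 95% interval for each tested gene in CAST against 129, hybrid against 129 and hybrid against CAST, with a red line at no change. The median interval reached 1.49, 1.53 and 1.52 log2 units to each side in the 3 comparisons.

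These zeros come with wide intervals. The median 95% interval of the 39 genes, not adjusted for their number, reached 1.49 log2 units to each side in CAST against 129, 1.53 in hybrid against 129 and 1.52 in hybrid against CAST. The narrowest was that of Ryk, at 0.88, 0.88 and 0.89, and the widest that of Wnt5a, at 2.27, 2.28 and 2.26. With 3 libraries per line, differences of this size or larger may have been missed, and no limit of detection was computed. The interval of Rspo1 in CAST against 129, from 0.75 to 3.31, excluded no change, yet Rspo1 was not called by edgeR. An adjusted p above the threshold does not show equal levels.

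Wnt7a, Wnt3 and Sfrp2 are described next because of their unadjusted p-values and were thus picked with those values in view. Wnt7a (chromosome 6, 91363981 to 91411363, minus strand, GRCm38), known for promoting synapse formation in mouse brain, had 3.54, 4.05 and 3.91 CPM in hybrid libraries 1 to 3, 13.5, 6.12 and 8.31 CPM in CAST libraries 1 to 3 and 8.73, 6.04 and 9.82 CPM in 129 libraries 1 to 3. The hybrid libraries were close together and below every library of both other lines. The log2 fold change of Wnt7a was −1.28 ± 0.41 in hybrid against CAST and −1.10 ± 0.41 in hybrid against 129 (adjusted p = 0.126 and 0.161), the lowest adjusted p of the 39 in each comparison.

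Wnt3, another ligand of beta-catenin signalling, had 2.12, 3.49 and 3.49 CPM in hybrid libraries 1 to 3, 9.60, 5.33 and 7.02 CPM in CAST libraries 1 to 3 and 3.22, 2.56 and 4.54 CPM in 129 libraries 1 to 3. The CAST libraries lay above all others, and hybrid and 129 libraries overlapped. Its log2 fold change was 1.08 ± 0.43 in CAST against 129 and −1.27 ± 0.44 in hybrid against CAST (adjusted p = 0.290 and 0.159).

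Sfrp2 (chromosome 3, 83766321 to 83774316, plus strand, GRCm38) had 4.25, 13.8 and 6.71 CPM in hybrid libraries 1 to 3, 2.68, 2.86 and 2.65 CPM in CAST libraries 1 to 3 and 6.50, 3.66 and 2.87 CPM in 129 libraries 1 to 3. Every CAST library lay below every library of both other lines, by a narrow margin from the lowest 129 library. The log2 fold change of Sfrp2 was 1.58 ± 0.53 in hybrid against CAST and −0.67 ± 0.52 in CAST against 129 (adjusted p = 0.147 and 0.533), and antisense genes overlap 16.1% of its exon length.

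**Figure D4:**
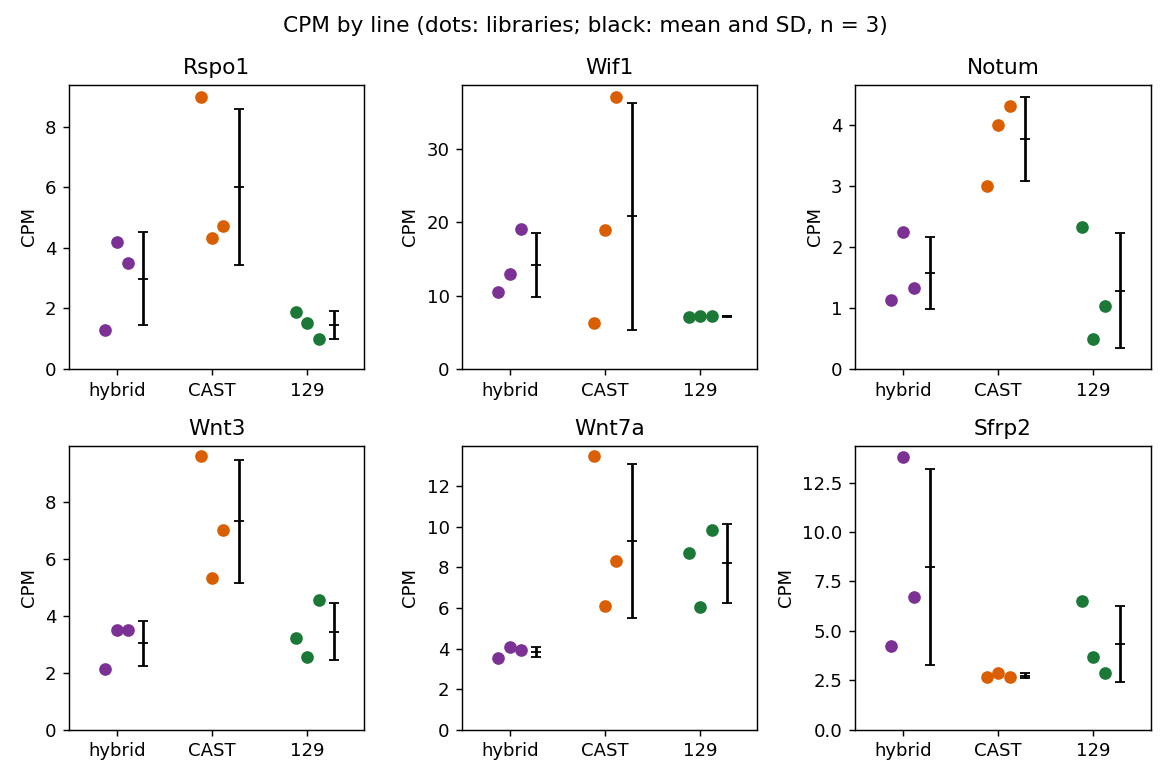
CPM of Rspo1, Wif1, Notum, Wnt3, Wnt7a and Sfrp2 in each library of the hybrid, CAST and 129 lines (dots), with the mean and SD in black (n = 3 each). The hybrid libraries of Wnt7a, between 3.54 and 4.05 CPM, sit below all others, and the CAST libraries of Rspo1, between 4.32 and 8.98 CPM, sit above all others.

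Libraries of 1 line differed more in these genes than in the typical gene. The median SD on the log2 scale within the hybrid was 0.90 for the 39 and 0.66 for all tested genes. It was 0.85 and 0.69 within CAST, and 0.64 and 0.30 within 129. Within the hybrid the highest library was 3.29 times the lowest for the median of the 39 and 2.47 times for the median tested gene. These ratios were 3.53 and 2.64 within CAST and 2.46 and 1.52 within 129. The widest ratio in each line was 16.6 for Wnt16 in the hybrid, 24.7 for Fzd5 in CAST and 6.05 for Dkk1 in 129.

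Receptors spread widely in the hybrid and in CAST. The median SD of the Frizzled receptors was 1.35 within the hybrid and 1.33 within CAST on the log2 scale, and 0.52 within 129. Of the 14 Frizzled and other receptors, 13 were highest in hybrid 1 among the hybrid libraries and 13 were highest in CAST 3 among the CAST libraries, against 38.7% and 32.6% of all tested genes. CAST 1 was the lowest CAST library for 12 of the 14, against 47.0% of all tested genes. Among hybrid libraries, hybrid 2 was the lowest for 7 of the 14, against 40.5%, and hybrid 3 for 6, against 20.7%. Within 129, the library 129 1 was the highest for 10 of the 14, against 39% of all tested genes. The library 129 3 was the lowest there for 11, against 36.2%. The median exon length was 4818 bases for Frizzled receptors, 5762 bases for the other receptors and 4368 bases for all tested genes. The offset for exon length was applied only to fold changes between lines. The part of exon length in these receptor values within a line was not tested.

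Markers of other cells varied between libraries, and which genes followed them depended on how a marker list was summarised. With the markers summed, the libraries of each line fell in the same order for the mesenchyme markers and for 9 of the 39 genes, namely Dkk2, Fzd2, Lef1, Lrp5, Ror1, Ror2, Sfrp1, Wnt2b and Wnt9a. That is 23.1%, against 2.47% of all tested genes, and the exact opposite order in all lines held for 0 of the 39, against 3.45%. The marker sum was 22800, 10600 and 1610 CPM in hybrid libraries 1 to 3, 4500, 5150 and 6280 CPM in CAST libraries 1 to 3 and 21400, 16300 and 4390 CPM in 129 libraries 1 to 3. In CAST only 3 of the 12 markers, Col1a1, Col1a2 and Prrx1, followed that order, against 9 of 12 in the hybrid and 11 of 12 in 129. Acta2 did not follow it, at 4030, 1280 and 1950 CPM in CAST libraries 1 to 3, and made up most of the sum in CAST 1. Col1a1 was at 195, 2020 and 2690 CPM in the same libraries. The mean log2 CPM of the 12 markers was 4.56, 6.24 and 6.14 in CAST libraries 1 to 3, which puts CAST 2 above CAST 3. With this mean in place of the sum, an alternative chosen after seeing the data, 0 of the 39 genes followed the mesenchyme order in all lines, against 0.714% of all tested genes. The 8 summed markers of neurons in general, such as Tubb3 and Map2, had the opposite order to the summed mesenchyme markers in every line. Their mean log2 CPM was 9.38, 9.51 and 9.07 in CAST libraries 1 to 3, which is not the order of their sum. The summed motor neuron markers did not have the opposite order in the hybrid, at 635, 1490 and 1350 CPM in libraries 1 to 3.

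Sfrp1, a Wnt-binding inhibitor, shows the order of the sums. It had 58.0, 19.6 and 11.4 CPM in hybrid libraries 1 to 3, 5.27, 24.5 and 34.1 CPM in CAST libraries 1 to 3 and 150, 35.5 and 33.2 CPM in 129 libraries 1 to 3. Ror2, a Wnt5a receptor, had 36.4, 24.0 and 4.68 CPM in hybrid libraries 1 to 3, 3.61, 9.04 and 20.8 CPM in CAST libraries 1 to 3 and 41.5, 21.2 and 8.96 CPM in 129 libraries 1 to 3. In both genes the library with the highest marker sum was the highest of its line.

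A further 7 genes followed the order of the summed neural progenitor and floor plate markers in every line. They were Dkk3, Fzd1, Fzd5, Fzd8, Fzd10, Lrp6 and Wnt5a. The progenitor and floor plate sums had the same library order in every line, so they count as 1 match. This order differed from that of the mesenchyme sum only in the places of hybrid 2 and hybrid 3. The summed motor neuron, epithelium and pluripotency markers had exactly the reverse order, so running opposite to them is the same result. Pluripotency markers summed to at most 8.52, 2.17 and 9.82 CPM in hybrid, CAST and 129 libraries. Few single markers followed the progenitor and floor plate sums in some lines. In hybrid, CAST and 129 libraries, 1, 5 and 3 of the 8 progenitor markers followed their sum. For the 6 floor plate markers it was 2, 1 and 3. The 7 genes were 17.9% of the 39, against 5.98% of all tested genes. With the mean log2 CPM in place of the sum, 0 of the 39 followed the order of either list in all lines. Of all tested genes, 0.303% followed the progenitor mean and 0.553% the floor plate mean. The progenitor markers summed to between 121 and 465 CPM in hybrid libraries, 98.9 and 579 CPM in CAST libraries and 167 and 516 CPM in 129 libraries, with at most 2 of 8 at 0 in a library. The floor plate markers summed to between 234 and 1520 CPM in hybrid libraries, 113 and 1920 CPM in CAST libraries and 456 and 1180 CPM in 129 libraries, with none of 6 at 0. In hybrid and CAST libraries the progenitor and floor plate order was also that of the exon length slopes. These slopes were 0.09, −0.66 and −0.26 in hybrid libraries 1 to 3 and −0.57, 0.18 and 0.3 in CAST libraries 1 to 3. In 129 libraries the slopes ran the other way, from 0.27 in 129 1 to 0.34 in 129 3. The slope order held in every line for 0 of the 39, against 5.74% of all tested genes. The part of exon length or of other cell types in any of these values was not tested.

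**Figure D5:**
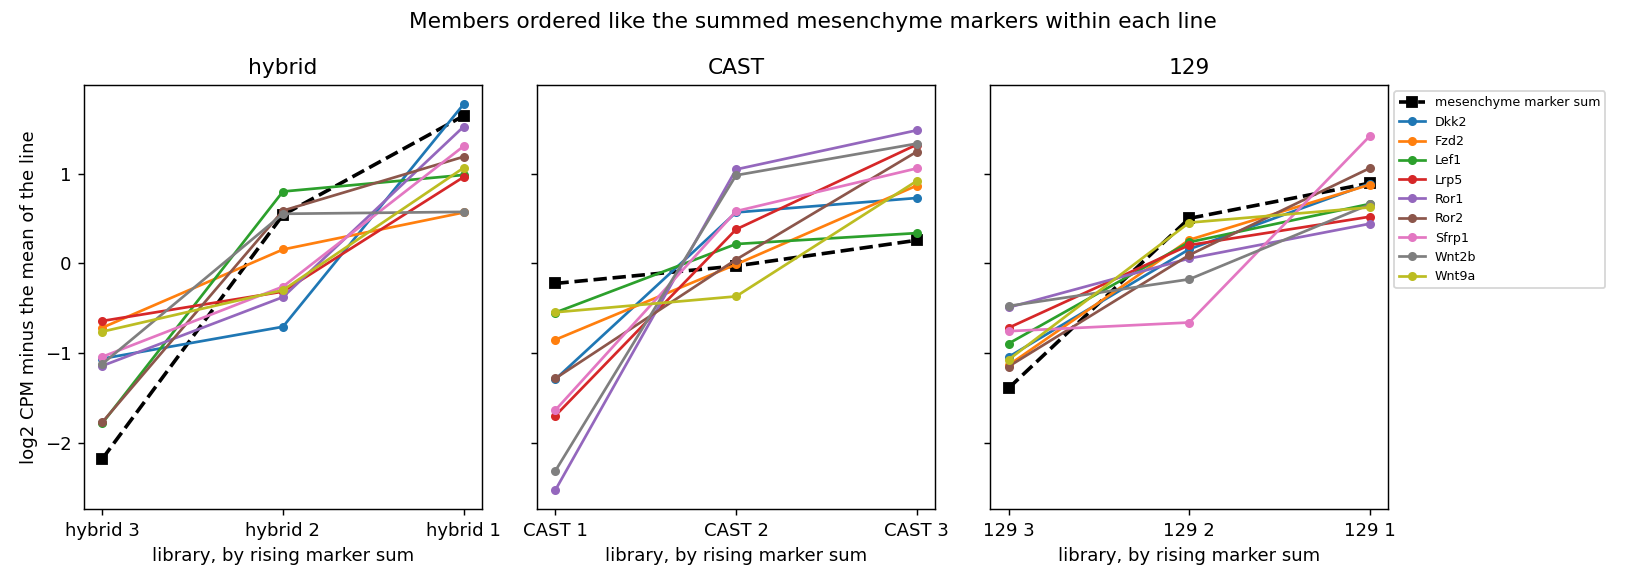
Log2 CPM, less the mean of the line, of the 9 genes whose libraries fall in the order of the summed mesenchyme markers (dashed black line), in the hybrid, CAST and 129 lines with libraries ordered by that sum. The genes were picked for this order, and the sum runs from 1610 to 22800 CPM in the hybrid, 4500 to 6280 CPM in CAST and 4390 to 21400 CPM in 129.

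The rest of the pathway was read from 73 genes in lists for ligand secretion, other secreted modulators, receptor turnover, cytoplasmic and nuclear transduction, planar polarity and target genes. Of these, 65 were tested. CAST against 129 called none of the 65, where 0.917% of all tested genes were called, and had 7 at an unadjusted p under 0.05, where 14.6% of all tested genes passed. The hybrid against 129 called 1 higher and none lower, or 1.54% against 7.02% of all tested genes, and had 7 at an unadjusted p under 0.05 against 22.2%. The hybrid against CAST called 1 higher and 1 lower, or 3.08% against 6%, and had 8 at an unadjusted p under 0.05 against 15.8%. The median log2 fold change of the 65 was −0.17, −0.21 and −0.31 in CAST against 129, hybrid against 129 and hybrid against CAST.

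Tle2, a co-repressor that partners Lef1 and its relatives, was the gene called in hybrid against 129. It rose to 21.1 ± 7.21 CPM in hybrid cultures, against 3.69 ± 0.559 CPM in 129 cultures (log2 fold change 2.51 ± 0.45, adjusted p = 0.00881), and CAST cultures stood at 14.3 ± 6.24 CPM. Leaving out the library 129 3 ended this call (adjusted p = 0.051, with 2.12e-06 to 0.051 over the 16 alternatives). The floor plate marker Foxa2 was also called higher in hybrid against 129 (adjusted p = 0.0309), and its part in the Tle2 value was not tested.

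Gpc3, a cell surface glypican that binds Wnt ligands, rose to 67.3 ± 37.9 CPM in hybrid cultures, against 12.3 ± 4.74 CPM in CAST cultures (log2 fold change 2.45 ± 0.62, adjusted p = 0.0492). In the same comparison 11 of the 12 mesenchyme markers had a positive log2 fold change, with a median of 1.53 and none called, and both Gpc3 and the marker sum were lowest among hybrid libraries in hybrid 3, at 23.8 and 1610 CPM. The part of mesenchyme in the Gpc3 value was not tested. Dact1, a Dishevelled-binding protein, fell to 4.31 ± 2.05 CPM in hybrid cultures, against 14.4 ± 1.42 CPM in CAST cultures (log2 fold change −1.72 ± 0.43, adjusted p = 0.0437). The Dact1 call was lost whichever single library was left out, at adjusted p-values between 0.0607 and 0.13. The Gpc3 call was lost under 12 of 16 alternatives, at adjusted p-values up to 0.188, among them each single library left out except hybrid 3.

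The remaining lists had no called gene. Wls, the carrier that brings Wnt ligands to the cell surface, was at 314 ± 219 CPM in hybrid cultures, 173 ± 90.2 CPM in CAST cultures and 313 ± 147 CPM in 129 cultures (SD, n = 3 each). Ctnnb1, which encodes beta-catenin, was at 525 ± 200, 564 ± 176 and 594 ± 123 CPM in hybrid, CAST and 129 cultures. Igfbp4, a secreted modulator that binds Frizzled and Lrp6, was at 132 ± 77.1, 44.4 ± 9.17 and 78.0 ± 55.3 CPM in the same lines, and the target gene Ccnd1, a cell cycle regulator, at 145 ± 92.7, 416 ± 359 and 412 ± 379 CPM.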

How the data were processed

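The authors deposited a matrix of counts, whole numbers of reads per Ensembl gene, with 3 libraries for each of the 3 lines. Libraries were made from poly(A) RNA with random priming, per the labels' protocols. Reads were aligned with STAR to mm10, per the submitters' processing notes. Not given in the sources used here are the STAR version, the counter and its strand mode. Columns were matched to libraries by line and replicate number, and none was left over.

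Symbols, coordinates and exon lengths came from GENCODE for GRCm38 (mm10), matched on Ensembl ID, which named 27030 of 27071 IDs. The filter of edgeR 4.0.16 (minimum count 10, minimum total 15, minimum proportion 0.7) kept 14839 genes. After TMM scaling, 1 robust quasi-likelihood fit held all 3 lines without covariates. Two-sided p-values were adjusted over these genes by Benjamini-Hochberg, with a threshold of 0.05. Fold changes are log2 with their standard error. The code of the test was run on simulated counts with equal dispersion for every gene and no trend with exon length. That run does not show how the test performs on libraries as variable as these. Alternatives were DESeq2 1.42.0 (Wald test), DESeq2 size factors, no filter, a replicate block, only the lines compared, an offset for exon length, and libraries left out. The genes and lists were chosen with earlier results of these data known. In each class the 2 genes with the highest mean CPM were named with full values, and from the pathway lists those past the threshold or the highest by mean CPM.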

Additional observations from a re-analysis of the deposited data

How the results depend on the processing

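Every edgeR alternative called 0 of the 39 tested Wnt genes in each comparison. DESeq2 called 1 in CAST against 129, 0 in hybrid against 129 and 2 in hybrid against CAST. Its shares of all tested genes were 6.33%, 14.2% and 10.8% in that order. Over all genes, 136 were called in CAST against 129, and DESeq2 called 939, the offset for exon length 250, the fit without both CAST 1 and hybrid 2 229, and the replicate block 6. With 1 library left out the count ran from 25 (without 129 2) to 157 (without hybrid 2). In hybrid against 129, where 1041 were called, DESeq2 called 2100 and the block 561, with 559 (without 129 2) to 1619 (without CAST 1) with 1 library left out. In hybrid against CAST, where 891 were called, DESeq2 called 1597 and the block 526. Whether the replicate numbers pair libraries is not known. Each gene's deviation from its line mean was correlated between same-numbered libraries. These correlations ran from −0.72 to 0.49, and 2 of 9 were above 0.1. With 3 libraries per line that differ in other ways, they cannot decide whether libraries were paired.

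Signs of fold changes that were not called turned in several settings, and the cause was not tested. In CAST against 129, without both CAST 1 and hybrid 2, the log2 fold change was 0.01 for Fzd1, 0.36 for Dkk3 and −0.21 for Wnt7a, and Dkk3 was at 0.16 under the block. In hybrid against 129, Wnt4 was at −0.03 without the filter and −0.05 without both libraries, and Notum at −0.06 without both libraries and −0.22 with the length offset. In hybrid against CAST, Fzd3 and Lrp6 were at 0.25 and 0.34 with the length offset and Dkk2 at −0.34 under the block. With 1 library left out, CAST against 129 ranged from −0.03 to 0.54 for Wnt4, −0.83 to 0.17 for Fzd1, −0.43 to 0.06 for Ryk, −0.35 to 0.48 for Dkk3, −0.08 to 0.77 for Axin2, −0.20 to 0.41 for Wnt7a and −0.58 to 0.53 for Wnt6. Hybrid against 129 ranged from −0.23 to 0.35 for Wnt4, −0.99 to 0.01 for Fzd1, −1.14 to 0.06 for Dkk3, −0.61 to 0.07 for Axin2, −0.36 to 0.06 for Wnt3 and −0.13 to 1.01 for Notum. Hybrid against CAST ranged from −0.38 to 0.08 for Wnt4, −1.89 to 0.44 for Wnt5a, −0.60 to 0.31 for Fzd1, −1.38 to 0.64 for Fzd3, −1.64 to 0.61 for Lrp6, −1.11 to 0.77 for Dkk2 and −0.98 to 0.16 for Wif1. With 3 libraries per line, fold changes as large as the intervals given above, or larger, may have been missed. The count of genes in the order of the mesenchyme markers was 9 of 39 by summed CPM, against 2.47% of all tested genes. By mean log2 CPM it was 0, against 0.714%.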
